A study of Mus musculus with 6 samples.

Results

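In single-cell RNA sequencing the share of a cell's transcripts that comes from the mitochondrial chromosome (chrM) is a customary quality measure, and cells above a limit, often 10%, are discarded before analysis. The wells described here are those that such a limit removes from a sort of colon tumor fibroblasts: wells with 500 to 6000 detected genes, at least 10% and less than 30% chrM transcripts, and at most 1 transcript each of Ptprc (CD45) and Epcam, the surface markers against which the cells had been sorted. Of 2304 wells on 6 plates, 424 met these limits. They were compared with the 779 wells that met the same other limits and had less than 10% chrM transcripts, called low-mitochondrial wells below, while 97 further wells reached 30% or more and were left aside. The limits themselves chose the wells by their chrM share, so that share and the chrM levels are given as a description only. Nuclear transcripts make up the rest of that share's denominator, so the depth of the wells is not independent of the limits either.

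Each plate of 384 wells held cells of 1 mouse with colon tumors driven by azoxymethane and dextran sulfate sodium (AOM/DSS), and the labels name the cells CAFs (cancer-associated fibroblasts) without a further treatment. Mice 1, 3 and 4 were FibCtrl, labelled Zeb1Fib-Ctrl, and mice 2, 5 and 6 were FibΔZeb1, labelled Zeb1Fib-deleted. All 6 carried floxed Zeb1 alleles on a C57BL/6 background, and only the FibΔZeb1 mice carried the Cre transgene driven by Col6a1, a collagen gene promoter that is active in a part of the intestinal mesenchyme and not in every fibroblast. Viable cells negative for EPCAM, CD45 and the endothelial marker CD31 had been index-sorted, and mice of both sexes were used, matched by age.

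Mitochondrial transcripts are made from a small circular genome that codes for subunits of the respiratory chain and for the rRNAs and tRNAs of the organelle. A cell whose membrane is damaged loses cytoplasmic mRNA before it loses its mitochondria, and a cell rich in mitochondria, such as a muscle cell, also has a high chrM share, so that a fixed limit can remove both. In the tumor stroma, inflammatory fibroblasts (iCAFs) make chemokines and cytokines such as CXCL1, CXCL2, IL-6 and CCL2, whose genes are switched on by NF-κB and AP-1, while pericytes and smooth muscle cells carry contractile proteins. Telocytes are flat fibroblasts below the epithelium, and other colon fibroblasts deeper in the wall carry factors such as Grem1.

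The plates held between 1575730 and 3699060 transcripts each, of which 7.85% to 18.6% were ERCC spike-in RNAs that were dropped. Among all wells, 549 had fewer than 500 genes, 16 had more than 6000, and a further 439 carried more than 1 transcript of Ptprc or Epcam, 119 of them at 10 to 30% chrM. All plates use the same set of 384 well barcodes, so shared barcodes carry no information about shared cells. Mouse 6 came from another sequencing run than the other mice and had the shallowest member wells.

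**Figure D1:**
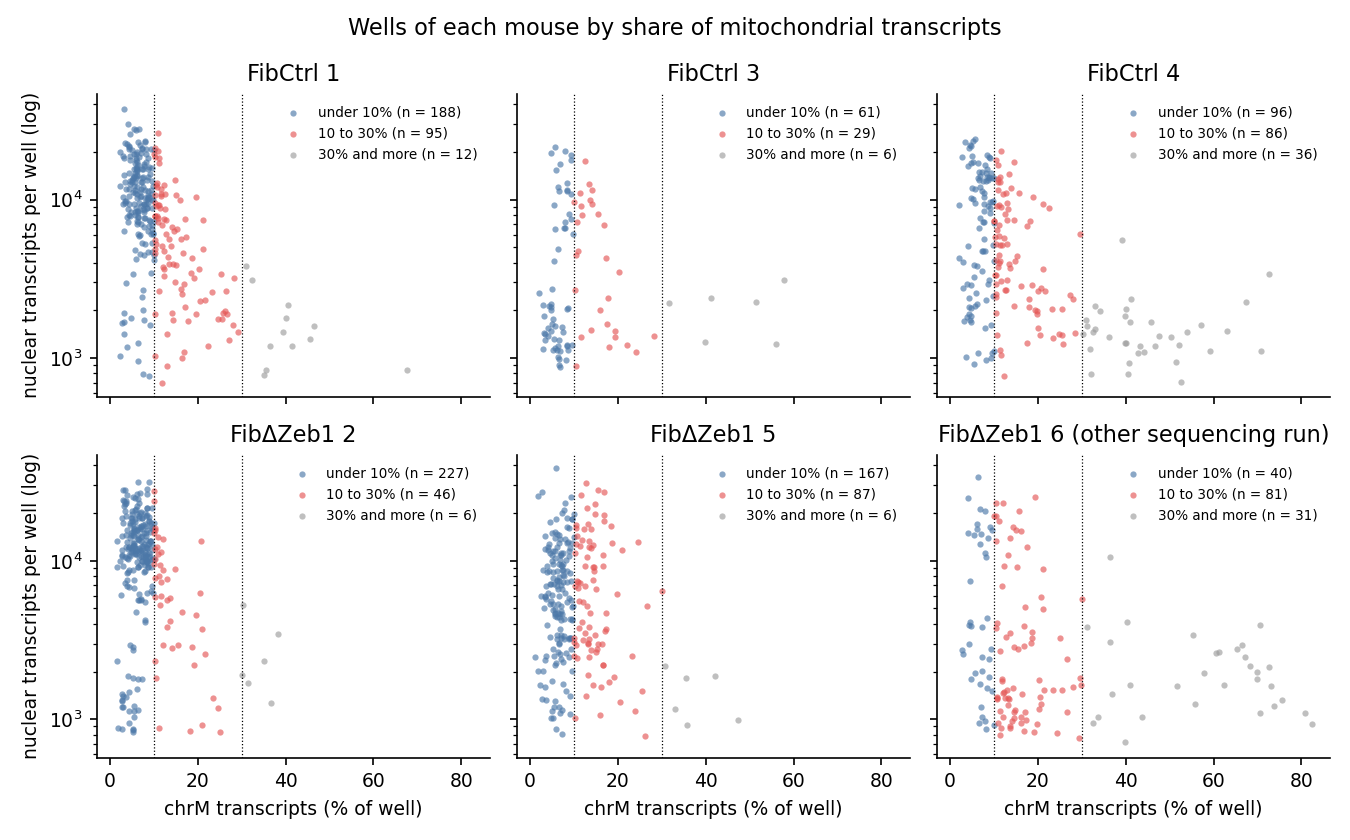
Wells of each mouse by their chrM share (x axis, % of transcripts without ERCC) and their nuclear transcripts (y axis, log scale), with dotted lines at the limits of 10% and 30%. Blue points are low-mitochondrial wells, red points the wells at 10 to 30% and grey points wells above; mouse 6 had more red (81) than blue (40) wells, mouse 2 the reverse (46 and 227).

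Of the wells under 30% chrM, the 10 to 30% wells made up 33.6% in FibCtrl mouse 1 (95% Wilson interval 28.3 to 39.3), 32.2% in mouse 3 (23.5 to 42.4) and 47.3% in mouse 4 (40.1 to 54.5). In the FibΔZeb1 mice they made up 16.8% in mouse 2 (12.9 to 21.7), 34.3% in mouse 5 (28.7 to 40.3) and 66.9% in mouse 6 (58.2 to 74.7). These intervals cover counting error only. The lowest and the highest share therefore both belonged to FibΔZeb1 mice, and the groups overlapped. The means were 37.7% ± 8.32 in FibCtrl and 39.3% ± 25.4 in FibΔZeb1 (SD, n = 3 each), a difference of 1.67 percentage points in a two-sided exact permutation test with p = 0.8, where 3 mice against 3 cannot give less than 0.1.

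The wells at 10 to 30% were not uniformly shallow. Their median nuclear transcript number per mouse ranged from 1642 to 6138, against 2029 to 12110 in the low-mitochondrial wells, and it was lower in 4 of 6 mice. The mean difference was -2716 transcripts ± 3361 (SD, n = 6; two-sided exact sign-flip test, p = 0.1875, smallest possible 0.03125). Because nuclear transcripts enter the denominator of the chrM share that chose the wells, this test cannot measure depth apart from the limits. In mice 3 and 5 the 10 to 30% wells held the larger median. These medians are not matched for cell type. Medians by cell type, and the difference with at least 1000 genes per well, are given below. The median number of chrM transcripts per well was 432 to 955 in these wells and 109 to 833 in the low-mitochondrial wells of the same mice, higher in 6 of 6. Spike-in medians, which do not depend on the cell, gave p = 0.406 in the same exact sign-flip test.

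Wells just on either side of the lower limit held a similar part of fibroblast-like wells. The 91 wells at 9 to 10% chrM had a median of 9078 nuclear transcripts and 64.8% of them fell into fibroblast-like clusters, and the 87 wells at 10 to 11% had a median of 7344 with 63.2% fibroblast-like. At the upper limit, 13 wells at 28 to 30% had a median of 1642 and 11 wells at 30 to 32% a median of 1897.

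Within chrM the rRNA genes took a slightly larger part of the transcripts in the 10 to 30% wells. The rRNAs together made up 27.2 to 34.6% of chrM transcripts per mouse, against 24.5 to 31.7% in low-mitochondrial wells. mt-Rnr2, the large rRNA, held 25.2% ± 1.81 against 23.0% ± 2.12 (SD, n = 6) and was higher in 5 of 6 mice, and mt-Rnr1, the small rRNA, held 6.72% against 5.58%. The 3 named mRNAs of the respiratory chain stood lower, with mt-Atp6 of ATP synthase at 14.6% against 15.4%, mt-Co1 of cytochrome oxidase at 10.4% against 10.9% and mt-Nd4 of complex I at 7.05% against 7.52%, the last lower in 6 of 6 mice. Because the wells were chosen by chrM transcripts, these values were not tested.

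The retained and the removed wells were clustered together on their nuclear genes, without chrM genes, into 17 clusters that were named from marker lists. Fibroblast-like clusters held 702 wells, 209 of them at 10 to 30%. Despite the sort, neutrophil-like clusters led by granulocyte genes held 153 wells (51 at 10 to 30%) and squamous epithelium-like clusters led by keratin genes held 92 (50). Against the label CAFs, these wells and the 137 pericyte-like wells (49) and 32 smooth muscle-like wells (13) carried the markers of other cells. The endothelial marker Pecam1 was found in 8 of 779 low-mitochondrial and 4 of 424 removed wells, at 0 to 12.5 CPM, counts scaled to 1000000 nuclear transcripts, over the sums.

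iCAF-like fibroblasts had a lower share of wells above the 10% limit than the other wells of their mouse in each mouse compared. On average 19.3% ± 5.89 of iCAF-like wells (SD, n = 5 mice with at least 5 of these wells) lay at 10 to 30%, which was 15.6 percentage points ± 12.9 below the share among the other wells of the same mouse and lower in 5 of 5 mice, with a range from -34.3 to -2.94. Of the iCAF-like wells, 16 of 77 lay at 10 to 30% in mouse 1, 5 of 35 in mouse 2, 2 of 7 in mouse 3, 1 of 7 in mouse 4 and 9 of 48 in mouse 5. All 5 mice were therefore on one side, but the two-sided exact sign-flip test over 5 mice cannot give less than 0.0625, the value found, and its p adjusted over the 11 labels was 0.229. The clusters under this label were not alike. Cluster 2, with 19 of 127 wells at 10 to 30%, differed by -16.8 points and was lower in 5 of 5 mice. Cluster 13, led by Ptx3 among others, could be compared in mice 1 and 5 only. In mouse 1 it held 10 of 29, a difference of 1.02 points, and in mouse 5 3 of 20, a difference of -20.9 points.

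Pericyte-like cells, which wrap small vessels, had a higher share at 10 to 30% than other wells in most mice. Their share at 10 to 30% was 46.5% ± 19.8 (SD, n = 6), which was 8.78 percentage points ± 12.7 above the other wells, with a range from -2.89 to 33.2 and higher values in 5 of 6 mice (exact sign-flip p = 0.0625, adjusted 0.229). The counts were 14 of 33 in mouse 1, 8 of 55 in mouse 2, 5 of 8 in mouse 3, 12 of 23 in mouse 4, 3 of 8 in mouse 5 and 7 of 10 in mouse 6. The clusters under this label differed. Cluster 10 (26 of 63 wells at 10 to 30%) stood 10.7 points above the other wells, higher in 4 of 4 mice. Its exact sign-flip p was 0.125, the smallest possible. Cluster 7, led by genes that include Rgs5 and Notch3, held 23 of 74 and differed by -0.892 points (higher in 2 of 4, exact sign-flip p = 0.875). Pericyte-like wells made up 11.6% of the removed and 11.3% of the retained wells with all mice pooled, and 12.6% and 9.61% as means over mice.

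Smooth muscle-like wells gave no detectable difference at this number of wells. Among the 3 mice with enough of them 38.9% ± 28.3 lay at 10 to 30% (SD), 0.615 points ± 23.4 above the other wells, with exact sign-flip p = 1 where 0.25 is the smallest possible. The counts were 4 of 10 in mouse 1, 6 of 9 in mouse 4 and 1 of 10 in mouse 5. A finer clustering split the 32 wells into 22 led by Hhip, Cnn1, Lmod1 and Myh11, genes of visceral smooth muscle, with 10 at 10 to 30%, and 10 wells led by Acta1, Car3, Tnnc2, Mylpf and Ckm, genes of skeletal muscle fibers, with 3 at 10 to 30%.

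Squamous epithelium-like wells made up 11.8% of the removed and 5.39% of the retained wells with all mice pooled, and 9.80% and 6.49% as means over mice. Most of them came from mouse 5, where 31 of 51 lay at 10 to 30%, and mouse 4, where 12 of 21 did. Within mice the share of 48.9% ± 12.5 (SD, n = 4) was 4.96 points ± 23.9 above the other wells and higher in 2 of 4 (exact sign-flip p = 0.75), so the difference did not exceed the spread between mice. Their depth was similar on both sides of the limit, with medians of 10843 nuclear transcripts in low-mitochondrial and 11277 in removed wells.

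The neutrophil-like wells differed widely between mice. In mouse 6, 38 of 52 (73.1%) lay at 10 to 30%, whereas in mouse 2 none of 25 did and in mouse 5 1 of 17 did. The mean of 21.7% ± 29.7 was 20.4 points ± 19.3 below the other wells (SD, n = 5, lower in 4, exact sign-flip p = 0.125, adjusted 0.275). These wells were shallow on both sides of the limit, with medians of 1381 and 1341 nuclear transcripts.

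The other fibroblast-like labels did not pass either, and no label or class could have passed. Only those compared in 6 mice can reach 0.03125 in the exact sign-flip test. Too few were compared in 6 mice for an adjusted p under 0.05. Fibroblasts without a subtype differed from the other wells by 6.37 points ± 8.79 (higher in 4 of 6 mice, exact sign-flip p = 0.125), telocyte-like wells by -3.59 ± 13.8 (p = 0.594) and wells with Cxcl13 and Grem1 markers by -1.82 ± 21.5 (p = 0.781). Wells with Myoc and Angptl7 markers could be compared in only 2 mice and differed by -0.522. They came from 2 clusters that went opposite ways: cluster 9, with 10 of 66 wells at 10 to 30%, differed by -15.7 points (lower in 2 of 2 mice), and cluster 14, with 24 of 34, by 30.6 points (higher in 2 of 2; exact sign-flip p = 0.5 for each, the smallest possible). All fibroblast-like wells together had 36.0% ± 14 at 10 to 30%, and their difference from the others was -6.21 points ± 12 (SD, n = 6; lower in 5 of 6 mice, exact sign-flip p = 0.219, adjusted over the classes 0.328). None of the 17 clusters passed on its own, the lowest adjusted p of the exact sign-flip tests being 0.531. None could have passed, because at most 5 mice had enough wells of a cluster and 5 mice cannot give less than 0.0625.

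**Figure D2:**
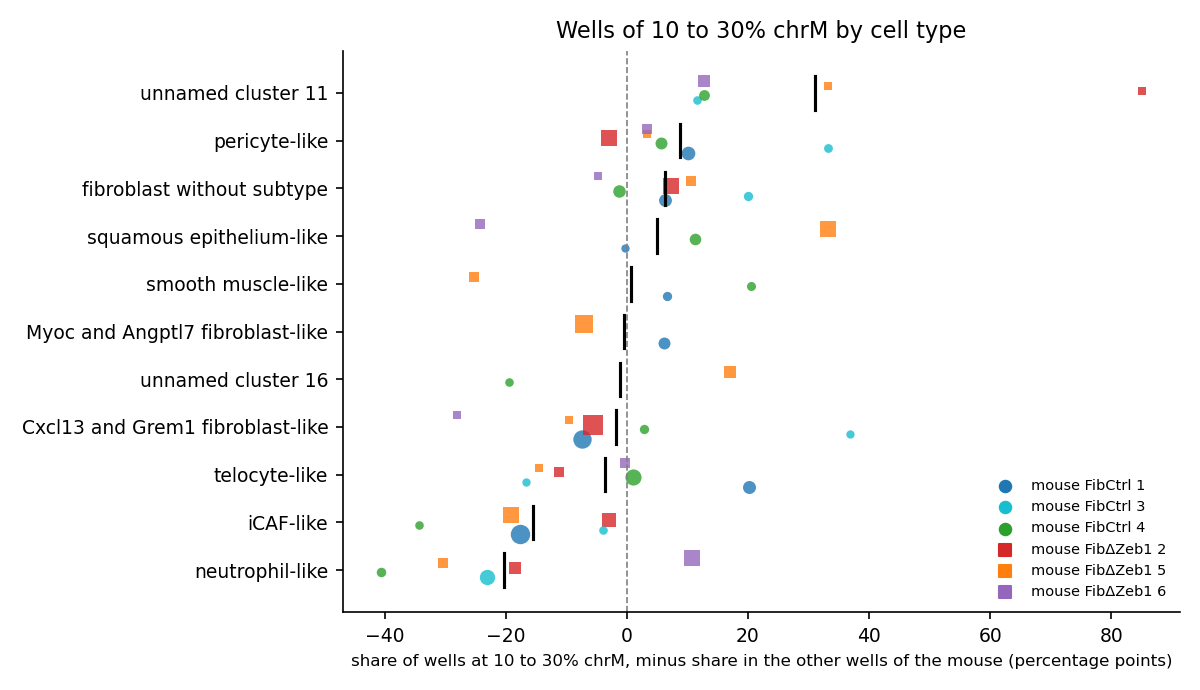
For each cluster label, the share of its wells at 10 to 30% chrM minus the share among the other wells of the same mouse, in percentage points. Each point is a mouse (circles FibCtrl, squares FibΔZeb1, size by number of wells) and the black bar is the mean; all 5 iCAF-like points lie below 0 and all 5 points of unnamed cluster 11 above it.

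A cluster without a cell type name, unnamed cluster 11, had the highest mean share of the 11 labels. Of its 57 wells 40 lay at 10 to 30%, with 3 of 3 in mouse 1, 6 of 6 in mouse 2, 3 of 7 in mouse 3, 10 of 17 in mouse 4, 4 of 6 in mouse 5 and 14 of 18 in mouse 6. Over the 5 mice with at least 5 of its wells the share of 69.2% ± 21.4 (SD) was 31 points ± 31.5 above the other wells, with a range from 11.5 to 85 and exact sign-flip p = 0.0625 (adjusted 0.229). The cluster was led by noncoding and poorly characterized RNAs, among them 4930470H14Rik, Gm7609, A130077B15Rik, Gm17821 and the long noncoding RNA Kcnq1ot1. Of 12 glandular epithelium markers 7 were raised in it, with a mean log2 fold of 2.28 over the list, the highest of the 17 clusters, but none was among its leading 10 genes, and no smooth muscle, pericyte or fibroblast marker was raised. Its wells had a median of 1931 nuclear transcripts, 0.489 of the depth of their own plates. Unnamed cluster 16, with 12 of 30 wells at 10 to 30%, was led by genes that include Kcna1, Sostdc1, Sox10, a marker of glial cells, and Myf5, and differed by -1.17 points over 2 mice.

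By chrM bin, the makeup of the wells shifted in steps. iCAF-like wells went from 24.3% of wells at 0 to 5% chrM through 16.5% at 5 to 10%, 9.30% at 10 to 15% and 6.67% at 15 to 20% to 3.95% at 20 to 30%. Unnamed cluster 11 held 2.97%, 1.91%, 3.88%, 13.3% and 23.7% in the same bins. All fibroblast-like wells made up 49.5%, 68.1%, 53.5%, 43.3% and 42.1%. Pericyte-like wells held 14.9%, 10.1%, 13.2%, 12.2% and 5.26%, and squamous wells 5.45%, 5.37%, 10.9%, 13.3% and 13.2%. The median number of nuclear transcripts differed between the bins, from 8552 at 0 to 5% and 10009 at 5 to 10% to 6560 at 10 to 15%, 3017 at 15 to 20% and 1918 at 20 to 30%. The wells of a bin come from unequal numbers of wells per mouse, and the bins are given without a test.

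**Figure D3:**
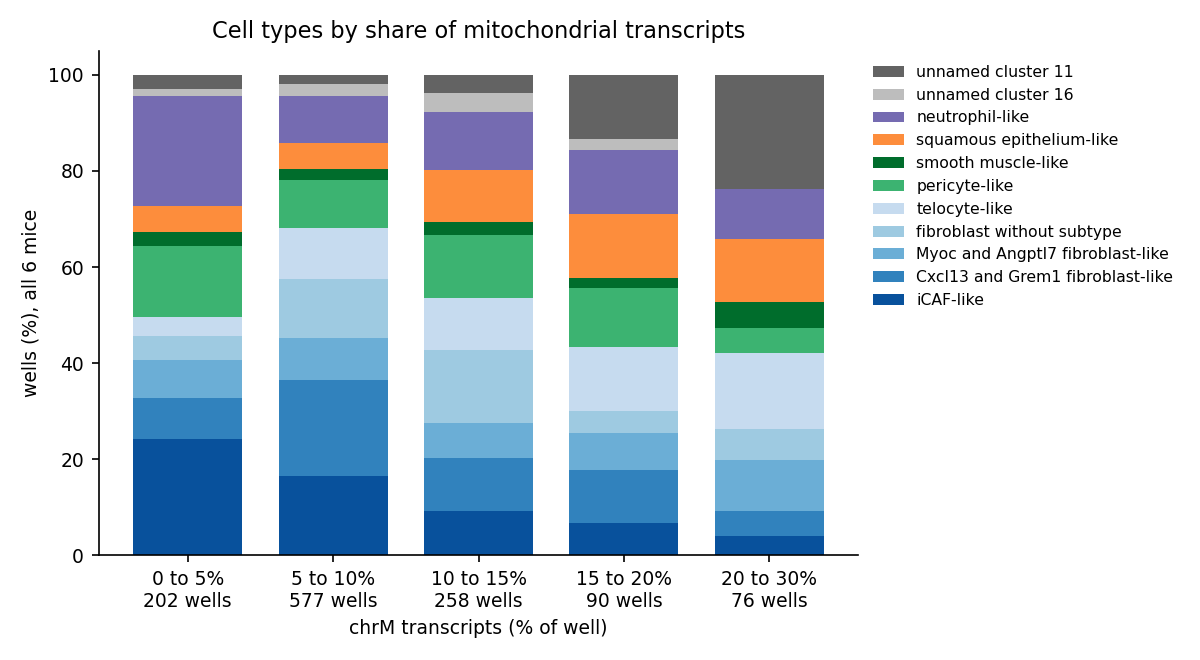
Stacked bars of the wells in 5 bins of chrM share (x axis), with the percent of wells in each cluster label (y axis, 0 to 100). The bins held 202, 577, 258, 90 and 76 wells; the iCAF-like part shrinks from the left bin to the right bin and unnamed cluster 11 grows in the right bins.

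The depth gap between removed and retained wells differed by label. iCAF-like wells had a median of 11741 nuclear transcripts below the limit and 4447 above it, telocyte-like wells 12246 and 7162, wells with Cxcl13 and Grem1 markers 12388 and 7794, and wells with Myoc and Angptl7 markers 5350 and 2001. Pericyte-like wells had 10598 and 6539, smooth muscle-like wells 3327 and 2663, and cluster 11 2397 and 1829. The medians by label pool wells of all mice, in unequal numbers per mouse.

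Broad markers were found on both sides of the limit. Dcn, a proteoglycan of fibroblasts, was detected in 87.9% of low-mitochondrial and 83.0% of 10 to 30% wells, and Col3a1, a fibrillar collagen, in 91.9% and 89.9%. Pdgfra, a growth factor receptor of fibroblasts, was detected in 64.1% and 45.3%, Myh11 of smooth muscle in 25.2% and 23.3%, Rgs5 of pericytes in 15.4% and 14.2%, and S100a9 of neutrophils in 28.8% and 32.1%. These shares are not matched for depth.

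To compare nuclear genes, counts were summed per mouse over the wells of each kind, and edgeR's quasi-likelihood test with mouse as a block was applied across all nuclear genes. A sum mixes the number of cells of a type with the RNA per cell, and the 2 cannot be told apart in it. Of 9693 genes tested over all wells, 62 (0.64%) passed a Benjamini-Hochberg adjusted p of 0.05, 13 higher in the 10 to 30% wells (0.134%) and 49 lower (0.506%), and 50 of the 62 moved the same way in 6 of 6 mice. At an unadjusted p under 0.05 there were 1021 (10.5%). The count rested on some mice: it was 20 without mouse 1, 21 without mouse 4 and 30 without mouse 6. Without mouse as a block edgeR called 0 genes here and 0 in fibroblast-like wells, with 393 and 264 at an unadjusted p under 0.05.

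Chemokine and cytokine genes were among the 49 that fell. Cxcl1, a neutrophil-attracting chemokine, fell from 1230 ± 615 to 361 ± 237 CPM (SD, n = 6; log2 fold change -1.93, SE 0.23, edgeR adjusted p = 0.00126). Il11, a cytokine of activated stroma, fell from a mean of 226 to 43.5 CPM (-2.29, SE 0.33, edgeR adjusted p = 0.0047). Ccl2, which attracts monocytes, fell from 483 ± 439 to 160 ± 194 CPM (-1.91, SE 0.30, edgeR adjusted p = 0.0101), Il6 from 220 ± 109 to 93.7 ± 83.2 (-1.39, SE 0.24, edgeR adjusted p = 0.0165), and Ccl7 (-1.83, edgeR adjusted p = 0.0165) and the alarmin Il33 (-1.94, 0.0406) fell too. Each of these genes was lower in the 10 to 30% wells of 6 of 6 mice.

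Several genes of hyaluronan synthesis and of the matrix, chosen after their values were seen, also fell. Has1, a hyaluronan synthase, had means of 444 and 175 CPM (log2 fold change -1.77, SE 0.36, edgeR adjusted p = 0.0406), Tnfaip6, a hyaluronan-binding protein, 608 and 222 (-1.53, SE 0.19, edgeR adjusted p = 0.00153), and Gfpt2, Ugdh and Uap1, enzymes that make the sugar precursors of hyaluronan, fell as well (log2 fold changes -1.58, -1.04 and -0.95). Of these matrix genes, Col8a1 fell from 233 ± 104 to 61.8 ± 24.9 CPM (-1.92, SE 0.17, edgeR adjusted p = 4.84e-05), Col14a1 from 397 ± 139 to 137 ± 89.0 (-1.76, SE 0.22, edgeR adjusted p = 0.00171), and Cilp (-2.03) and Lum (-1.19) fell with them. Col8a1, Cilp, Npy1r, Col14a1, Lum, Ptx3, Tnfaip6, Ccl7, Ccl2, Has1, Gfpt2, Uap1 and Ugdh are leading genes of the iCAF-like clusters, which held 7.78% of the removed and 18.5% of the retained wells. Those values pool all mice, and the means over mice were 7.69% and 15.2%. Without iCAF-like wells 4 genes passed (Acta1, Cxcl1, Il11 and Wfdc17).

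None of the 14 smooth muscle and 12 pericyte markers of the lists was among the 13 genes that rose, although Pcp4l1 (log2 fold change 1.38, edgeR adjusted p = 0.0406, higher in 5 of 6 mice) was a leading gene of a pericyte-like cluster. Kcnq1ot1, a long noncoding RNA that is read antisense to Kcnq1 and silences imprinted neighbors, stood at 1839, 1743, 5277, 3579, 1978 and 3954 CPM in the low-mitochondrial wells of mice 1 to 6 and at 3300, 4409, 7442, 6618, 2536 and 7529 CPM in the 10 to 30% wells. Every mouse was higher, although the ranges overlapped (log2 fold change 0.78, SE 0.16, edgeR adjusted p = 0.0406). Gm17821, annotated as a processed pseudogene whose reads may belong to related copies, rose from a mean of 1851 to 3194 CPM (0.77, SE 0.16, edgeR adjusted p = 0.0435), A130077B15Rik from 136 to 295 (1.07, SE 0.19, edgeR adjusted p = 0.0183) and 4930470H14Rik from 40.4 to 91.4 (1.23, SE 0.26, edgeR adjusted p = 0.047). Lars2, which charges leucine tRNA inside mitochondria, rose from 290 to 496 CPM (0.71, SE 0.15, edgeR adjusted p = 0.0473) and Slc12a2, a sodium, potassium and chloride cotransporter, from 93.3 to 174 (0.80, SE 0.17, edgeR adjusted p = 0.0482).

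Kcnq1ot1, Gm17821, A130077B15Rik and 4930470H14Rik lead unnamed cluster 11, which held 9.43% of the removed and 2.18% of the retained wells. Those values pool all mice, and the means over mice were 10.0% and 4.17%. Without the neutrophil-like and the unnamed wells, Kcnq1ot1 had a log2 fold change of 0.12 (edgeR adjusted p = 0.919), Gm17821 of 0.09 (0.939), A130077B15Rik and 4930470H14Rik of 0.12 and 0.13, and Lars2 of 0.39 (0.562), while Slc12a2 remained at 0.82 (0.0407). In the fibroblast-like wells alone, Lars2 stood at 0.71 (edgeR adjusted p = 0.156, not called, higher in 5 of 6 mice). Kcnq1ot1, Gm17821 and A130077B15Rik stood there at 0.07, 0.05 and 0.07. None of the annotated transcripts of the 13 genes shared 20 bases with a chrM transcript, which 1 of 9219 tested genes did. A run of at least 15 A inside a transcript was held by 1 of the 13 (7.69%), against 7.92% of the tested genes. That gene was Kcnq1ot1, with a run of 41 A and a longest transcript of 93092 bases. Whether its counts come from reads at that run was not tested. Kcnq1ot1 lies at chr7:143203458-143296549 on the minus strand of GRCm38 and Lars2 at chr9:123366927-123462666 on the plus strand. Whether the counting used the strand is not given in the sources used here, so reads of Kcnq1ot1 and Kcnq1 cannot be told apart.

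A few of the called genes rested on mouse 5. Igfbp2 rose from 136 to 875 CPM in its wells, Apoc1 from 78.3 to 498 and Krt79, a keratin, from 175 to 740, with log2 fold changes over all mice of 2.36, 2.32 and 2.12 (edgeR adjusted p = 0.0254, 0.0406 and 0.0435). These 3 genes lead the squamous epithelium-like cluster, of which mouse 5 had 31 of 51 wells at 10 to 30%. Acta1, the actin of skeletal muscle, went from 737 to 9.67 CPM in mouse 5, and 97.7% of its counts in low-mitochondrial wells lay in 10 wells, 47.0% of them in 1 well. Its log2 fold change was -6.21 (SE 0.44, edgeR adjusted p = 2.64e-05) and DESeq2 gave an adjusted p of 0.99.

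Contractile and mural genes were not called. Over all wells, 13 of 14 smooth muscle markers had a positive fold change with a median log2 of 0.29, and 11 of 12 pericyte markers with a median of 0.47, against 0.01 over all genes tested, but none of these genes passed. Acta2, the smooth muscle actin, had a log2 fold change of 0.37 (edgeR adjusted p = 0.453), Tagln of 0.42 (0.502) and Mylk of 0.19. Rgs5, a pericyte regulator of G protein signaling, stood at 251 ± 124 and 370 ± 174 CPM (SD, n = 6; 0.51, edgeR adjusted p = 0.31), and Notch3, the receptor of mural cells, at 154 and 233 (0.58, edgeR adjusted p = 0.168). The summed smooth muscle markers ran from 1332 to 4288 CPM in low-mitochondrial and from 1431 to 6516 CPM in removed wells, and the pericyte markers from 541 to 2079 and from 405 to 2487, each higher in 5 of 6 mice.

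The fibroblast lists went the other way. All 10 general fibroblast markers had negative fold changes with a median log2 of -0.55, of which Lum passed, and all 13 tested iCAF markers had negative fold changes with a median of -1.10, of which Gdf10, Has1, Il6 and Cd34 passed. Myoc and Igfbp6 passed among 5 markers of the Myoc and Angptl7 fibroblasts (median -1.01) and F3 among 10 telocyte markers (median -0.49), while none of 6 Cxcl13 and Grem1 markers did (median -0.26). Dcn stood at 12114 and 7998 CPM (-0.59, edgeR adjusted p = 0.281) and Col3a1 and Col1a2 had log2 fold changes of -0.51 and -0.30. Lists of other cells had no called member: glandular epithelium (8 tested, median 0.41), squamous epithelium (9, 0.25), neutrophils (10, -0.81), macrophages (4, -0.73), endothelium (4, 0.01), enteric glia (4, -0.75) and interstitial cells of Cajal (2, 0.21). For lymphocytes and mesothelium 1 gene each could be tested, with 0.60 and 2.28, neither called, and for erythroid cells none.

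To separate a change within fibroblasts from a change in cell types, the test was repeated on the fibroblast-like wells alone. Of 6762 genes tested 56 passed (0.828%), 4 higher (0.0592%) and 52 lower (0.769%), and 45 moved the same way in 6 of 6 mice, while 695 (10.3%) had an unadjusted p under 0.05. The count was 25 without mouse 1 and 30 without mouse 4. 32 genes were called in both comparisons, 51.6% of those called over all wells and 57.1% of those called in fibroblast-like wells, which share their samples.

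Cxcl1 changed most clearly. In the fibroblast-like low-mitochondrial wells of mice 1 to 6 it stood at 2549, 1209, 746, 1054, 1544 and 1033 CPM, and in the 10 to 30% wells at 666, 463, 195, 251, 415 and 133 CPM. The lowest of the former lay above the highest of the latter, and the mean fell from 1356 ± 640 to 354 ± 199 CPM (SD, n = 6; log2 fold change -2.02, SE 0.16, edgeR adjusted p = 1.25e-06). Cxcl1 lies at chr5:90891241-90893115 on the plus strand of GRCm38, beside Cxcl2 at chr5:90903871-90905938.

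Other cytokines fell in the same wells. Cxcl2, a second neutrophil chemokine, ran from 64 to 387 CPM per mouse in low-mitochondrial wells and from 12 to 103 CPM in 10 to 30% wells, with means of 175 ± 123 and 56.1 ± 38.4 (log2 fold change -1.58, SE 0.22, edgeR adjusted p = 0.00149). Il11 ran from 110 to 655 CPM and from 10.2 to 124 CPM, with means of 312 ± 254 and 60.9 ± 45.0 (-2.11, SE 0.31, edgeR adjusted p = 0.00222), and it is a leading gene of a telocyte-like cluster with 13 of 24 wells at 10 to 30%. Il33 ran from 53.7 to 278 CPM and from 0 to 96.2 CPM, with means of 133 ± 80.0 and 28.6 ± 37.8 (-2.24, SE 0.31, edgeR adjusted p = 0.00149). The ranges of all these genes overlapped between wells of different mice, but within each mouse the 10 to 30% wells were lower. Ccl2 ran from 26.9 to 1388 CPM and from 4.02 to 603 CPM (-1.35, SE 0.20, edgeR adjusted p = 0.00222), and Ccl7 fell by 1.37 on the log2 scale and in 5 of 6 mice. Il6 (-0.79) and Has1 (-1.25) were not called here (edgeR adjusted p = 0.115 each).

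**Figure D4:**
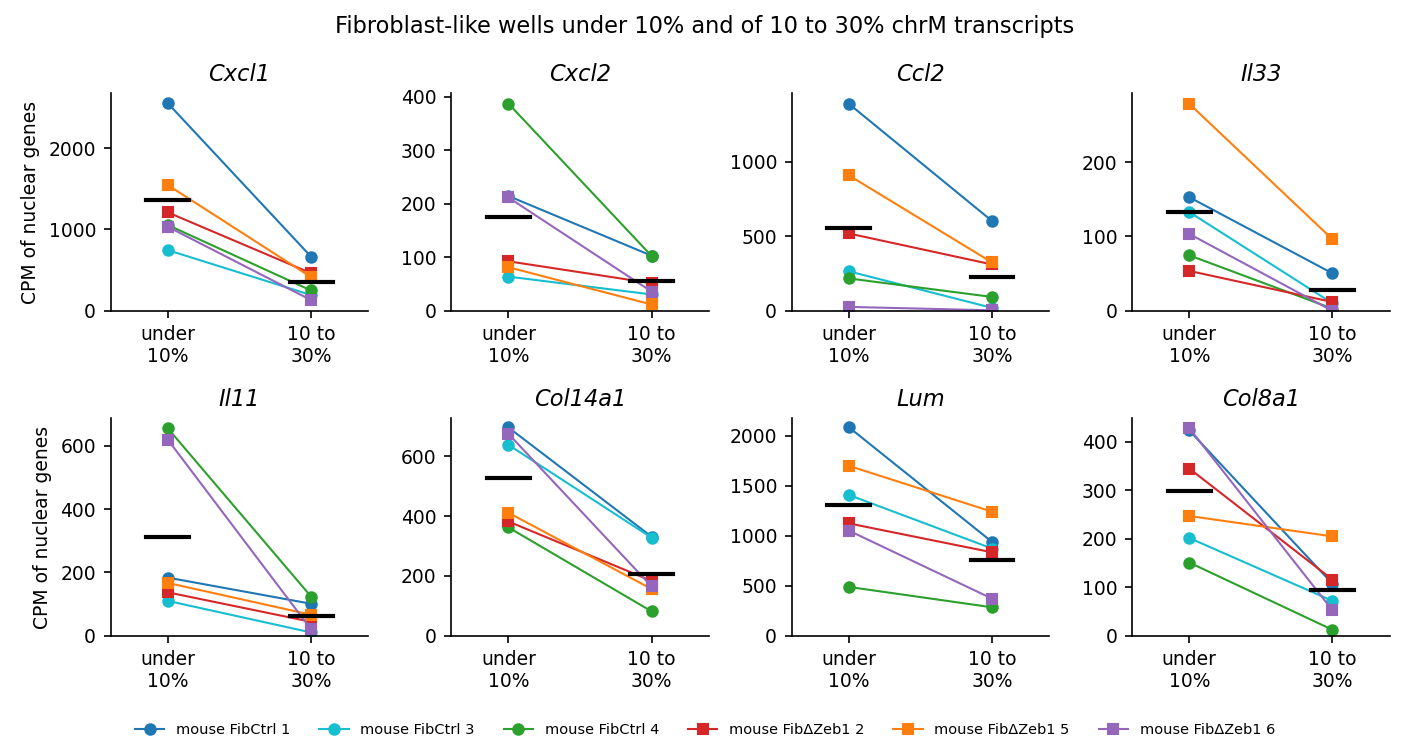
CPM of nuclear transcripts (y axis) of 8 genes in the summed fibroblast-like wells under 10% and at 10 to 30% chrM (x axis). Each line joins the values of a mouse and the black bar is the mean of 6 mice; Cxcl1 falls in each mouse, from a mean of 1356 to 354 CPM, and Col14a1 from 528 to 207.

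A few of the genes named here carry an NF-κB motif in front of their start, and their promoters are shown for that reason. The motifs were chosen after the genes had been seen. The sequences are from RefSeq, on GRCm38.p6, from 250 bases before to 50 bases after the first listed start, 5′ to 3′ on the strand of the gene, at chr5:90890995-90891294 (plus strand), chr5:90903649-90903948 (plus), chr5:30012864-30013163 (plus) and chr10:19015361-19015660 (minus), and capitals mark, on either strand, GGG, any 2 bases and TTTCC (NF-κB) or TGANTCA with any base at N (AP-1):
Cxcl1: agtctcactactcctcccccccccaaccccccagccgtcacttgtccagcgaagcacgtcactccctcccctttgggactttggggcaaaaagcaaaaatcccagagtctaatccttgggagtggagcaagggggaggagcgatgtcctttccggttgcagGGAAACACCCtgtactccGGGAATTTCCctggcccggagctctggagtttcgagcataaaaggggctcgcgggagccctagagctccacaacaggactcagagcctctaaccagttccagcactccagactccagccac
Cxcl2: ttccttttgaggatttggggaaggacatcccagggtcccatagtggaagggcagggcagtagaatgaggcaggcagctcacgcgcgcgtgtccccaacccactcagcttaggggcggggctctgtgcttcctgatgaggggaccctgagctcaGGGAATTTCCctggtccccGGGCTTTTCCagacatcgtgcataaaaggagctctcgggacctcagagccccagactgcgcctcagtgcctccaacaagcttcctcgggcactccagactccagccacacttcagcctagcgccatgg
Il6: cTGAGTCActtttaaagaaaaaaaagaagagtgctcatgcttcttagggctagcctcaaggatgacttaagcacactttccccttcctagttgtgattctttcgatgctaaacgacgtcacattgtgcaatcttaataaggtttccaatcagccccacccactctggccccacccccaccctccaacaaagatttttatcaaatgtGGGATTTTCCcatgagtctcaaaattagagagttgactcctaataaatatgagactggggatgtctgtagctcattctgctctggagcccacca
Tnfaip3: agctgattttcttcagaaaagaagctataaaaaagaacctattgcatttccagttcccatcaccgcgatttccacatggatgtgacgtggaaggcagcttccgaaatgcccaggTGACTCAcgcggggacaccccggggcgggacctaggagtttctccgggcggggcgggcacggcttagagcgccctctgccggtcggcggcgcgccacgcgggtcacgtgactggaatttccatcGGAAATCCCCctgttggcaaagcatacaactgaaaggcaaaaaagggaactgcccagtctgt
The Cxcl1 and Cxcl2 windows each hold the NF-κB letters at 2 places and the AP-1 letters at 0, and the Il6 and Tnfaip3 windows hold each motif 1 time.

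Among the genes that fell over all wells and have a promoter in the tables, 3 of 32 (9.38%) held the NF-κB letters, against 1.72% of the 7340 tested genes with a promoter and 1.62% of 27025 promoters in all. In fibroblast-like wells 3 of 28 (10.7%) did, against 1.84% of 5119. Among the other named genes, the windows of Il11, Il33, Has1, Tnfaip6, Atf3, Klf4 and Btg2 held the NF-κB letters at 0 places. For Ccl2, Ccl7 and Nfkbiz no promoter was available. The AP-1 letters were held by 9 of 32 (28.1%) and 7 of 28 (25%), against 5.10% and 5.04% of the tested genes and 7.93% of all promoters. Of the genes that rose, 8 over all wells and 2 in fibroblast-like wells had a promoter in the tables, and none of these windows held either set of letters. A match describes the letters of the window only.

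Among genes chosen after their values were seen, Tnfaip3 (A20), which shuts the pathway off, fell by 1.13 on the log2 scale (SE 0.21, edgeR adjusted p = 0.00975, lower in 5 of 6 mice) and Nfkbiz, a nuclear cofactor of NF-κB, by 0.81 (SE 0.13, edgeR adjusted p = 0.00356). Of 18 tested immediate early genes none rose and 3 fell, where 0.769% of all tested genes fell, and all 18 had negative fold changes (median log2 -0.33, against -0.00 over all genes). Btg2 fell by 0.83 (edgeR adjusted p = 0.00975), the stress factor Atf3 by 0.74 (0.0147, lower in 5 of 6 mice) and Klf4 by 0.67 (0.0349). Fos (-0.29), Fosb (-0.36) and Egr1 (-0.50, edgeR adjusted p = 0.158) were not called. Over all wells the list had a median of -0.40 with Klf4 called among 18.

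Some matrix genes, several of them leading genes of the iCAF-like clusters named above, fell within fibroblast-like wells too, while abundant ones did not pass. Col14a1, a collagen that binds along fibrils, ran from 362 to 696 CPM and from 81.4 to 331 CPM, so that the ranges did not overlap, and fell from 528 ± 158 to 207 ± 101 (SD, n = 6; log2 fold change -1.44, SE 0.17, edgeR adjusted p = 0.000217). Col8a1 fell by 1.83 on the log2 scale (SE 0.26, edgeR adjusted p = 0.00218), and Cilp (-1.61), Npy1r, a neuropeptide Y receptor (-1.72), Boc, a hedgehog coreceptor (-1.67), and Fgl2 (-1.52) fell too. Lum, a proteoglycan of collagen fibrils, ran from 488 to 2085 CPM and from 284 to 1240 CPM (-0.85, SE 0.14, edgeR adjusted p = 0.00463), and Tnfaip6 (-1.23), Gfpt2 (-1.22) and Ugdh (-0.78) fell. The abundant collagen Col1a2 stood at 10268 ± 1113 and 10453 ± 1716 CPM (-0.01, edgeR adjusted p = 0.997), and Dcn (-0.25), Col3a1 (-0.25), C3 (-0.44) and Cxcl12 (0.17) were not called.

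Only 4 genes rose in fibroblast-like wells, 3 of which are described. Fah, an enzyme of tyrosine breakdown, rose from a mean of 19.1 to 42.7 CPM (1.23, SE 0.28, edgeR adjusted p = 0.0482). Ccnd1, the G1 cyclin D1, rose by 1.38 (edgeR adjusted p = 0.0313, higher in 5 of 6 mice) and Cdca7l by 1.62 (0.0397). With the chrM share taken from protein-coding chrM genes only, Ccnd1 was at -0.27 and Cdca7l at -0.24, neither called. The neutrophil marker list stood beside these changes at 169 to 503 CPM in low-mitochondrial and 215 to 1271 CPM in 10 to 30% fibroblast-like wells, higher in 5 of 6 mice, with a positive fold change for 7 of 8 tested members, none called, and a median log2 of 0.38. Its part in the results was not tested.

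Fewer genes were called without the iCAF-like wells. With those wells left out of the fibroblast-like class, 7 genes passed: Cxcl1 (log2 fold change -1.79, edgeR adjusted p = 0.000118), Cxcl2 (-1.88, 0.000118), Il11 (-2.32, 0.00297), Tnfaip3 (-1.38, 0.0229), 9930013L23Rik, Aldh1a3 and Fst. The matrix genes were no longer called, with Col14a1 at -0.32 (edgeR adjusted p = 0.951) and Lum at -0.17 (0.96), nor were Il33 at -0.73 (0.94) and Ccl2 at -1.14 (0.129).

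The level of Cxcl1 in fibroblast-like wells was lower in each step up to 15% chrM. Its mean CPM was 2391 at 0 to 5% (4 mice with enough wells), 1142 at 5 to 10%, 360 at 10 to 15% and 416 at 15 to 30% (5 mice). Col14a1 stood at 771, 462, 201 and 235, Il33 at 225, 119, 27.7 and 43.8, and Cxcl2 at 204, 179, 53.1 and 83.7. None of these means kept 1 direction over all bins, since each was higher at 15 to 30% than at 10 to 15%. Il11 (201, 337, 38.0 and 173) also rose from the first bin to the next. The bins do not hold the same mice, and the steps were not tested.

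Because the removed wells were shallower in most mice, each fibroblast-like well was also thinned to 1000 transcripts, which left 490 low-mitochondrial and 203 removed wells and dropped 9 shallower ones. Cxcl1 was then detected in 35.6% and 23.0% of wells, lower in 6 of 6 mice, against 64.4% and 48.1% before thinning. Col14a1 was detected in 26.8% and 16.8%, also lower in 6 of 6 mice, against 63.4% and 50.2% before. The differences in Cxcl2 (8.22% and 3.31%, lower in 4 of 6 mice) and Ccl2 (17.7% and 12.5%, 5 of 6) did not go the same way in each mouse. On thinned sums the Cxcl1 fold change was -1.31 and still called, while Cxcl2 (-0.45, edgeR adjusted p = 0.847) and Il11 (-1.13, 0.246) were not.

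No member of the lists of nuclear genes for mitochondrial function was called, and Lars2, called over all wells, is in none of them. Over all wells, 49 of 52 nuclear genes of oxidative phosphorylation had a positive fold change, with a median log2 of 0.18 and none called, and in fibroblast-like wells 29 of 52 did with a median of 0.04. Atp5b and Atp5a1, subunits of ATP synthase, had log2 fold changes of 0.30 and 0.28 over all wells. Genes of fatty acid oxidation and the citrate cycle had medians of 0.21 (17 tested) and -0.02 (16 tested), genes of mitochondrial transcription and translation 0.26 (12) and -0.10 (7), and ribosomal proteins 0.14 and 0.02 (36 each), with no call in either comparison. Glycolysis and hypoxia genes had medians of -0.15 and -0.13 (14 tested each), with Adm, a vasodilator peptide, lower over all wells (log2 fold change -1.28, SE 0.26, edgeR adjusted p = 0.0406).

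Stress programs were not called. Heat shock genes had medians of 0.03 over all wells and -0.04 in fibroblast-like wells (13 tested each), genes of the integrated stress response -0.14 (9) and -0.21 (8), and p53 and apoptosis genes -0.08 (12) and 0.14 (10). Single heat shock genes went opposite ways in fibroblast-like wells. Hspa1a (0.61, edgeR adjusted p = 0.0665) and Hspa1b (0.54, 0.133) were higher in 5 and 6 of 6 mice. Hspa8 (-0.37, edgeR adjusted p = 0.158) was lower in 6 of 6. Of the nuclear long noncoding RNAs, which stay in the nucleus, Kcnq1ot1 was called over all wells and none in fibroblast-like wells, with medians of 0.42 and 0.23 (5 tested each), and Malat1 stood at 0.42 (edgeR adjusted p = 0.451) over all wells. Regulators of the smooth muscle program had medians of 0.16 (9) and 0.33 (8) with no call. In fibroblast-like wells all 10 tested smooth muscle markers had a positive fold change with a median of 0.63 against -0.00 over all genes, none called. Acta2 stood at 601 ± 368 and 985 ± 319 CPM (0.93, edgeR adjusted p = 0.114), and the summed list ran from 566 to 2695 and from 1425 to 3217 CPM, higher in 5 of 6 mice. The medians of the other subtype lists in fibroblast-like wells were -0.70 for iCAF, -0.67 for Myoc and Angptl7, -0.24 for telocyte, 0.09 for Cxcl13 and Grem1 and -0.11 for pericyte markers.

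**Figure D5:**
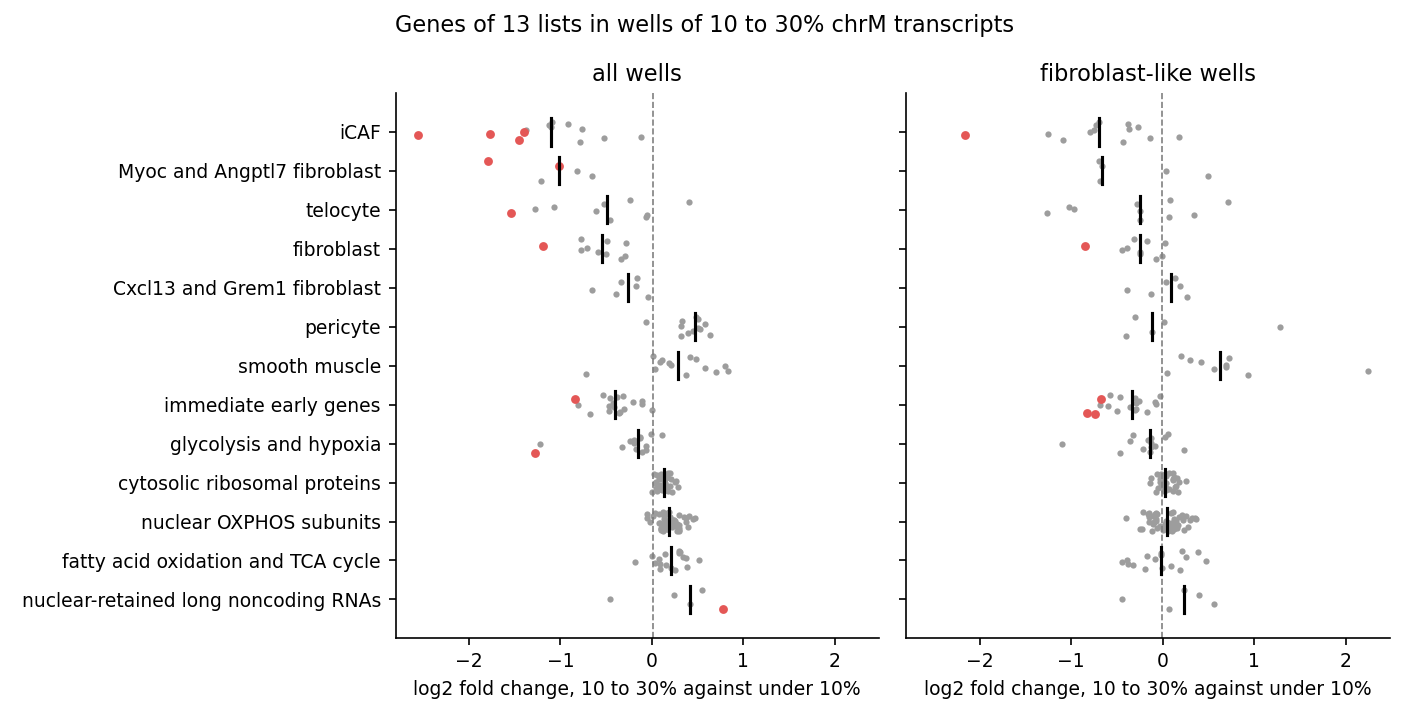
Log2 fold change of each tested gene (x axis, 10 to 30% against under 10% chrM) for 13 gene lists (rows), over all wells and in fibroblast-like wells. Red points passed an adjusted p of 0.05 and the black bar is the list's median; the iCAF medians lie at -1.10 and -0.70, the oxidative phosphorylation medians at 0.18 and 0.04.

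Last, the genotypes were compared within the removed wells. Zeb1, the deleted gene, stood at 98.3, 69.6 and 66.3 CPM in the 10 to 30% wells of the FibCtrl mice and at 49.2, 35.9 and 52.1 CPM in those of the FibΔZeb1 mice, so the groups did not overlap (78.1 ± 17.6 and 45.7 ± 8.64, SD, n = 3; two-sided exact permutation test, p = 0.1, the smallest possible). In low-mitochondrial wells it stood at 113, 95.3 and 89.1 CPM and at 58.8, 56.6 and 59.3 CPM (p = 0.1 in the same exact test). The log2 fold changes were -0.74 (SE 0.34) in the removed and -0.80 in the retained wells, a difference of 0.01 (SE 0.38) in the model with both. The transcripts left in FibΔZeb1 mice come from all sorted cells, with or without Cre.

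No gene passed between the genotypes. Of 7184 genes tested in the 10 to 30% wells 0% were called by edgeR, of 9683 in the low-mitochondrial wells 0% and of 10823 in both together 0%, DESeq2 called 0 in each, and 171 (2.38%), 113 (1.17%) and 163 (1.51%) genes had an unadjusted p under 0.05. A different effect of the chrM share in the 2 genotypes was called for 1 of 9693 genes (0.0103%, with 315 or 3.25% at an unadjusted p under 0.05), Car3, a carbonic anhydrase of muscle and fat, whose counts lay in few wells of mouse 5.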

How the data were processed

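Cells of 6 mice were sequenced by SORT-seq, a plate method with molecular barcodes, with 1 mouse and 384 wells per plate. The authors aligned the reads with bwa 0.7.10 to the Ensembl transcriptome of GRCm38, and per the labels the submitters' processing notes also name Cell Ranger 2.1.1. They deposited barcode counts (whole-number counts of molecular barcodes per gene and well) and estimated counts of transcripts, which are the barcode counts corrected by the authors for barcodes that coincide. The latter were used and rounded after summing, and barcode counts served as an alternative. The members and gene lists were chosen with earlier results of these data known, and the rule for naming clusters was tightened after their leading genes had been seen.

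ERCC rows were dropped. Nuclear genes of both kinds of wells were clustered together without chrM genes (2000 variable genes, 30 components, mutual nearest neighbors with k = 20 across plates, 15 neighbors, leidenalg 0.10.2 at resolution 1), and a cluster was named where at least 3 of a list's markers, and 50% of the list, were raised and at least 1 was among its leading 10 genes. No doublet caller was run, and doublets were not removed beyond the limit of 6000 genes. Counts were summed per mouse and kind of well, with at least 10 wells per mouse for a class and 5 for a cluster, and tested with edgeR 4.0.16 (quasi-likelihood, filterByExpr, TMM, nuclear library size, mouse as block) in R 4.3.3. SE is the log2 fold change divided by the square root of F. Pairing is by mouse, since both kinds of wells share a plate. The labels do not pair mice of the 2 genotypes, so genotypes were compared without a block. Named genes are, for each comparison of wells, the 10 with the largest rise and the 10 with the largest fall among those called with at least 50 CPM and the same direction in every mouse, the 3 most abundant tested genes of each list, and Zeb1. The other genes named, such as Il6, Tnfaip3, Nfkbiz, Btg2, Atf3, Klf4, Fah, Ccnd1, Cdca7l, Adm, Igfbp2, Apoc1, Krt79, Acta1, the hyaluronan genes and the members of short lists of calls, were chosen after their values were seen. The test was checked on simulated counts. Wells were compared by two-sided exact tests over mice. Alternatives were DESeq2 1.42.0, limma 3.58.1, other limits, scalings and thinned wells, and leaving out each mouse. The values of a few genes are not reported here.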

Additional observations from a re-analysis of the deposited data

Results flagged for a closer look

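Car3 was singled out because its effect of chrM share differed between the genotypes in the edgeR interaction test (log2 difference -7.48, SE 0.96, adjusted p = 0.0285). In mouse 5 it stood at 362 CPM in low-mitochondrial and 6.90 CPM in 10 to 30% wells, in mouse 4 at 5.78 and 32.2 CPM, and in the other mice at 3.08 CPM or less. 10 wells held 98.3% of its counts in low-mitochondrial wells. DESeq2 called 0 genes for this difference, and 0 were called without mouse 5.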

How the results depend on the processing

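Depth and the number of mice limited these results: an exact test over 5 mice cannot pass 0.05, and 3 against 3 cannot either. The 62 genes called over all wells became 105 with DESeq2, 389 with no filter on low counts, 12 on thinned wells, 5 with limits on protein-coding chrM genes, 4 without iCAF-like wells and 0 with limma on equal wells, and the 56 of fibroblast-like wells became 208 with no filter, 21 against wells at 5 to 10% only, 7 without iCAF-like wells, 4 on thinned wells and 1 with limma. With no replicate block for mouse 0 genes were called in both (393 and 264 at an unadjusted p under 0.05), and Cxcl1 in fibroblast-like wells was -1.93 with adjusted p = 0.571; it passed under every other alternative run. Leaving out 1 mouse gave 20 to 66 and 25 to 82 calls, 0 to 1 interaction calls, 0 to 0 genotype calls and 0 to 0 cluster calls. The cluster tests, over at most 5 mice, could not have given a call, and neither could the adjusted tests of labels and classes. The interaction gave 0 calls with DESeq2 and 13 with no filter. Without 1 mouse the differences in share ran from -10.2 to -3.74 points for fibroblast-like, -18.7 to -10.9 for iCAF-like, -28.1 to -15.3 for neutrophil-like, 3.89 to 11.1 for pericyte-like, -9.29 to 13.5 for smooth muscle-like, -4.46 to 14.7 for squamous wells and 17.6 to 35.9 for cluster 11, the depth difference from -3711 to -2030 transcripts and the genotype difference from -12.1 to 12.9 points. The genotype difference turned to -0.641 with protein-coding limits, -0.757 with at least 100 genes, -4.22 with at least 1000 and -2.67 with ERCC in the denominator. With at least 1000 genes the depth difference was -3789 (exact sign-flip p = 0.03125), a value that also rests on the denominator of the chrM share. Signs turned, all in uncalled genes except where named, over all wells for Pdgfrb (0.095 with no replicate block, 0.13 thinned, 0.13 limma, 0.031 against 5 to 10%, -0.19 to 0.15 without 1 mouse), Cxcl12 (0.074, 0.069 and 0.055 in the first 3 of these, -0.34 to 0.16 without 1 mouse), Atp5g3 (-0.12 to 0.16 without 1 mouse), Mylk (-0.044 without iCAF-like wells) and Rgs5 (-0.32 with protein-coding limits). In fibroblast-like wells protein-coding limits, which moved the median of all genes to -0.13, turned the called Ccnd1 (-0.27) and Cdca7l (-0.24) and the uncalled Acta2 (-0.031), Tagln (-0.57), Mylk (-0.65) and Cxcl12 (-0.43). Without iCAF-like wells the called Ugdh (0.025) and the uncalled Col3a1 (0.029), Col1a2 (0.16) and C3 (0.12) turned. Il6 turned on thinned wells (0.29) and Mylk on thinned wells (-0.016) and with limma (-0.012). Col1a2 was at 0.0042 with RLE scaling, 0.014 with no replicate block, 0.016 with members under 20% and 0.0020 against 5 to 10%, and at -0.092 to 0.082 without 1 mouse, and Cxcl12 was at -0.014 to 0.38 without 1 mouse. The other alternatives kept both counts within 1.5 times. The cause was not tested.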
